A study of Canis lupus familiaris with 16 samples.

Results

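Keratins are the proteins of the intermediate filaments of epithelial cells, and each filament pairs a type I (acidic) with a type II (basic) chain. KRT8 with KRT18 is the pair of hepatocytes and other simple epithelia, and bile duct cells add KRT7 and KRT19, which is why pathologists use these keratins to tell bile duct from hepatocyte differentiation in liver tumours. The 7 genes described here are KRT7, KRT8 and KRT80 (type II) and KRT18, KRT19, KRT20 and KRT23 (type I). They were taken by symbol from count tables of 39543 gene symbols, and all 7 had a row in every table. A further 52 symbols named keratins outside this set.

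The counts came from RNA-seq of 4 cell lines grown from hepatic tumours of dogs and labelled as hepatocellular carcinoma (HCC) lines. KU-cHCC-001 and KU-cHCC-002 were used together with KU-cHCC-004 and KU-cHCC-005, and the numbers 001, 002, 004 and 005 stand for them below. Each line was kept for 24 h with 30 µM sorafenib, with its vehicle dimethyl sulfoxide (DMSO), with 15 µM toceranib, or with the vehicle of toceranib, Dulbecco's phosphate-buffered saline (DPBS), 1 library each, 16 libraries in all. Sorafenib is a multikinase inhibitor used in human HCC, and toceranib a receptor tyrosine kinase inhibitor used in dogs. The study asked which transcripts the drugs change. The replicates of a treatment were the 4 lines, and no treatment was repeated within a line.

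Libraries held 12008366 to 21943572 counts. Levels below are counts divided by the library size and put on one common scale (CPM), with library sizes adjusted by the trimmed mean of M values (TMM). Of the 4 DPBS libraries, 3 correlated best with the DMSO library of another line, and the fourth, labelled KU-cHCC-005, matched its own line weakly (r = 0.29). In the DMSO and sorafenib libraries, 539 genes marked KU-cHCC-001 by a 4-fold or greater excess over each of the other lines. Their high values in these libraries follow from that choice, so only the toceranib and DPBS values are a check. The median of these genes on the log2(CPM + 0.5) scale was 3.97 with DMSO, 3.73 with sorafenib and 3.96 with toceranib. It was -0.72 in the library labelled as DPBS of KU-cHCC-001. The DPBS libraries also formed close pairs, 001 with 004 and 002 with 005. In these the median squared count difference was 2.52 and 2.34 times that of sampling noise. In the other DPBS pairs it was 22.2 to 27 times. Tests therefore used the 12 DMSO, sorafenib and toceranib libraries, and DPBS values are given apart. Set against the HCC label, 7 to 12 of 14 bile duct (cholangiocyte) markers reached 5 CPM in a library, whereas 0 to 2 of 11 hepatocyte markers did.

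KU-cHCC-001 carried far less of these keratins than the other lines. In its DMSO, sorafenib and toceranib libraries the 7 genes took 0.267%, 0.198% and 0.253% of all counts. With DMSO they took 2.78%, 2.08% and 2.32% in lines 002, 004 and 005. All 5 keratins with enough counts to be tested were lower in KU-cHCC-001, and the difference ran from 4.60-fold for KRT8 to 123-fold for KRT19. In bulk RNA, fewer keratin-expressing cells and less keratin RNA per cell cannot be told apart.

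**Figure D1:**
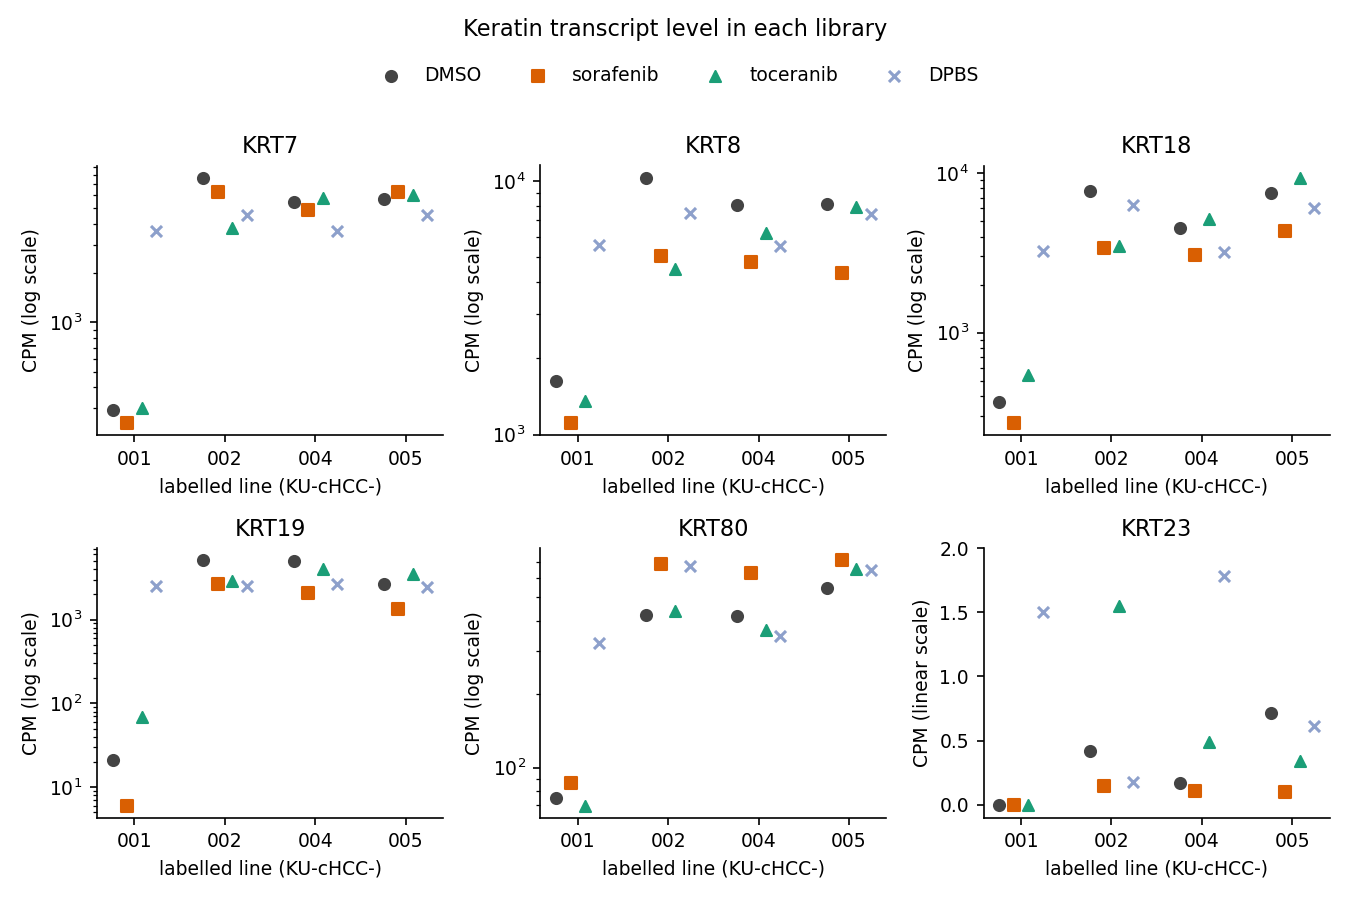
CPM of 6 keratins in each of the 16 libraries, by labelled line (x axis) and treatment (symbol), on log axes except for KRT23, which is linear because it had libraries at 0. KRT20, at most 0.533 CPM, is not drawn. KU-cHCC-001 lies lowest in every panel apart from its DPBS library, where KRT19 stood at 2520 CPM.

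KRT8 and KRT18 form the pair found in all simple epithelia. KRT8 stood at 1630 CPM with DMSO, 1110 CPM with sorafenib and 1360 CPM with toceranib in KU-cHCC-001, against 4330 to 10300 CPM in the 9 corresponding libraries of the other lines. KRT18 stood at 368, 272 and 542 CPM in KU-cHCC-001, compared with 3050 to 9330 CPM in the others. Neither gene's groups overlapped, but the share of all genes without overlap was not counted. The log2 difference of KU-cHCC-001 from the mean of the other lines was -2.20 ± 0.25 (SE) for KRT8 and -3.70 ± 0.31 for KRT18, with adjusted p = 3.63e-05 and 4.12e-06 by edgeR's quasi-likelihood test with Benjamini-Hochberg adjustment over 14938 genes.

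The bile duct keratins differed more. KRT7 stood at 290 CPM with DMSO, 242 CPM with sorafenib and 298 CPM with toceranib in KU-cHCC-001, and at 3770 to 7690 CPM in the other lines. KRT19 stood at 21.4, 6.04 and 69.4 CPM in KU-cHCC-001, which are 409, 137 and 1644 counts, compared with 1350 to 5100 CPM elsewhere. The lowest KRT19 value outside KU-cHCC-001 thus lay well above the highest within it. The edgeR log2 difference was -4.35 ± 0.29 (adjusted p = 8.19e-07) for KRT7 and -6.94 ± 0.61 (adjusted p = 5.29e-06) for KRT19.

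KRT80, an epithelial keratin described in human tissues near desmosomes, stood at 74.8 CPM with DMSO, 86.5 CPM with sorafenib and 69.8 CPM with toceranib in KU-cHCC-001. In the other lines it ranged from 367 to 709 CPM, and the edgeR log2 difference was -2.75 ± 0.18 (adjusted p = 8.06e-07). KRT23, a less studied type I keratin, had 0 counts in the 3 KU-cHCC-001 libraries and 69 counts over the 9 others. Against a floor of 3 counts over those 3 libraries (0.0511 CPM), it was at least 8.13-fold lower there than the 0.416 CPM of the other lines, a limit that covers counting error only. KRT20, the keratin of intestinal and urothelial surface cells, had 4 counts in KU-cHCC-001 and 21 counts in the 9 other libraries, so it was at the edge of detection in all lines. Neither KRT20 nor KRT23 passed the filter on low counts.

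Many other genes also differed in KU-cHCC-001. Of the genes tested, 43.8% were called between KU-cHCC-001 and the other lines at an adjusted p under 0.05, 19.5% as lower, and all 5 tested keratins were among these. Libraries of 1 line under different treatments share their cells, so these p-values measure the spread between libraries and not between lines. With all 16 libraries, which puts DPBS labelled KU-cHCC-001 into that line, the KRT19 difference was -4.12 and was no longer called (adjusted p = 0.0758), while the other tested keratins stayed called.

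**Figure D2:**
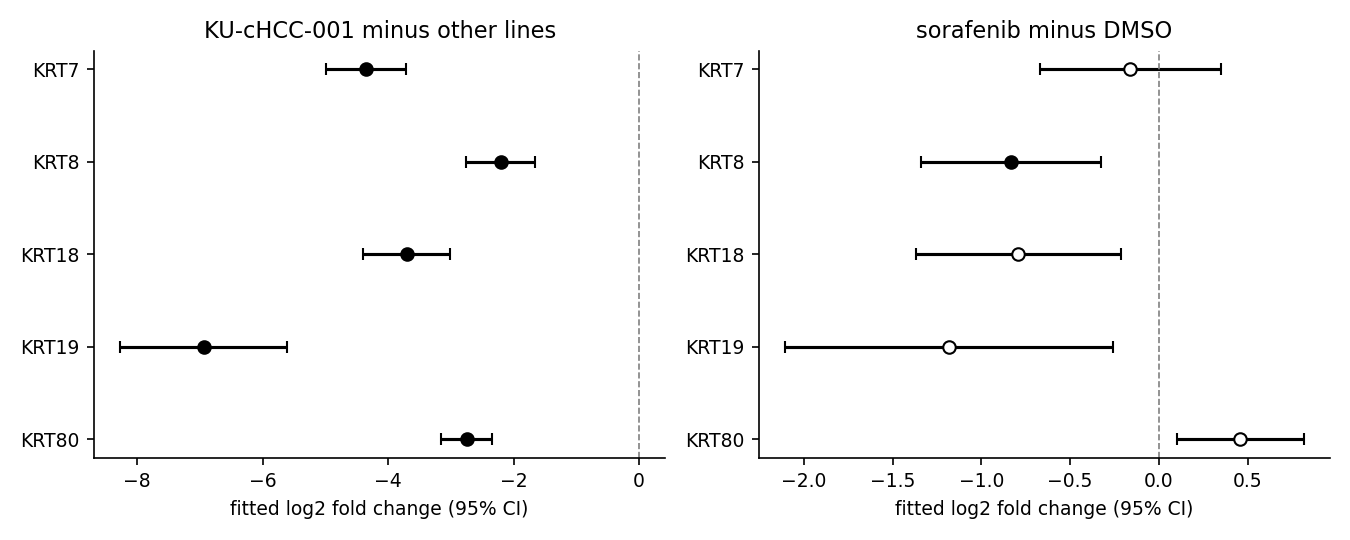
Fitted log2 fold changes with 95% confidence intervals of the 5 tested keratins, for KU-cHCC-001 minus the mean of the other lines (left) and sorafenib minus DMSO (right). Filled points had an adjusted p under 0.05 by edgeR. On the left all 5 lie below 0, from -2.20 for KRT8 to -6.94 for KRT19. On the right KRT8 (-0.83) is the filled point, and KRT80 (0.46) lies on the other side of 0.

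Outside KU-cHCC-001 the lines were not told apart by these genes. Averaged over the DMSO, sorafenib and toceranib libraries, KRT7 was 5920 ± 1990 CPM (SD, n = 3) in line 002, 5400 ± 456 CPM in line 004 and 6020 ± 275 CPM in line 005, in overlapping ranges. By edgeR's test for any difference among these lines, 9.36% of genes and 0 of the 5 keratins were called, and 0 had an unadjusted p under 0.05. The adjusted p was 0.908 for KRT7, 0.966 for KRT8, 0.279 for KRT18, 0.598 for KRT19 and 0.246 for KRT80. DESeq2 called 0 of the 5 as well. KRT19 was called without the toceranib libraries (adjusted p = 0.0416), where its DMSO level was 2640 CPM in KU-cHCC-005 against 5100 and 4980 CPM in lines 002 and 004. The number of genes called here was 2470 without KU-cHCC-001, 205, 664 and 462 without lines 002, 004 and 005, and 1398 with all lines.

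KRT8 was lower with sorafenib, and KRT18, KRT19 and KRT80 came close to the threshold without passing it. KRT8 fell from 1630 to 1110 CPM in line 001, from 10300 to 5050 CPM in line 002, from 8040 to 4790 CPM in line 004 and from 8140 to 4330 CPM in line 005. It was lower in 4 of 4 lines, at 49.0% to 67.7% of the DMSO level. Outside KU-cHCC-001 it averaged 8820 ± 1270 CPM with DMSO and 4720 ± 365 CPM with sorafenib (SD, n = 3). The edgeR log2 change was -0.83 ± 0.23 (adjusted p = 0.0288), a 1.78-fold decrease. It was the 1 keratin of 5 called, against 19.6% of all tested genes, 10.1% as lower and 9.59% as higher.

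KRT18, the partner of KRT8, stood at 368, 7720, 4540 and 7500 CPM with DMSO in lines 001, 002, 004 and 005 and at 272, 3380, 3050 and 4310 CPM with sorafenib. These are 74.0%, 43.8%, 67.2% and 57.4% of DMSO, lower in each line. The edgeR log2 change was -0.79 ± 0.26 with an adjusted p of 0.0555, just outside the threshold. The ratio of KRT8 to KRT18 counts was 4.45, 1.33, 1.77 and 1.08 with DMSO and 4.07, 1.49, 1.57 and 1.00 with sorafenib, a mean log2 change of -0.06 ± 0.15 (SD, n = 4 lines) that was lower in 3 lines and higher in 1.

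KRT19 and KRT7, both keratins of bile duct cells, differed from DMSO by unlike amounts. KRT19 went from 21.4 to 6.04 CPM in line 001, from 5100 to 2650 CPM in line 002, from 4980 to 2050 CPM in line 004 and from 2640 to 1350 CPM in line 005. It was thus lower in 4 of 4 lines, with a log2 change of -1.18 ± 0.42 (edgeR adjusted p = 0.0704). KRT7 stood at 83.6%, 82.1%, 89.6% and 110% of its DMSO level in lines 001, 002, 004 and 005, a log2 change of -0.16 ± 0.23 (95% confidence interval -0.67 to 0.35, edgeR adjusted p = 0.66).

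The ratio of KRT7 to KRT19 counts, chosen after the values were seen, was higher with sorafenib in each line. It was 13.5, 1.51, 1.10 and 2.17 with DMSO and 40.1, 2.38, 2.40 and 4.64 with sorafenib in lines 001, 002, 004 and 005. The mean log2 change was 1.11 ± 0.37 (SD, n = 4). An exact two-sided permutation test within lines gave p = 0.125, the smallest of its 16 arrangements, so this design cannot pass 0.05. Over the 8 ratio changes computed the adjusted exact permutation p was 0.25.

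**Figure D3:**
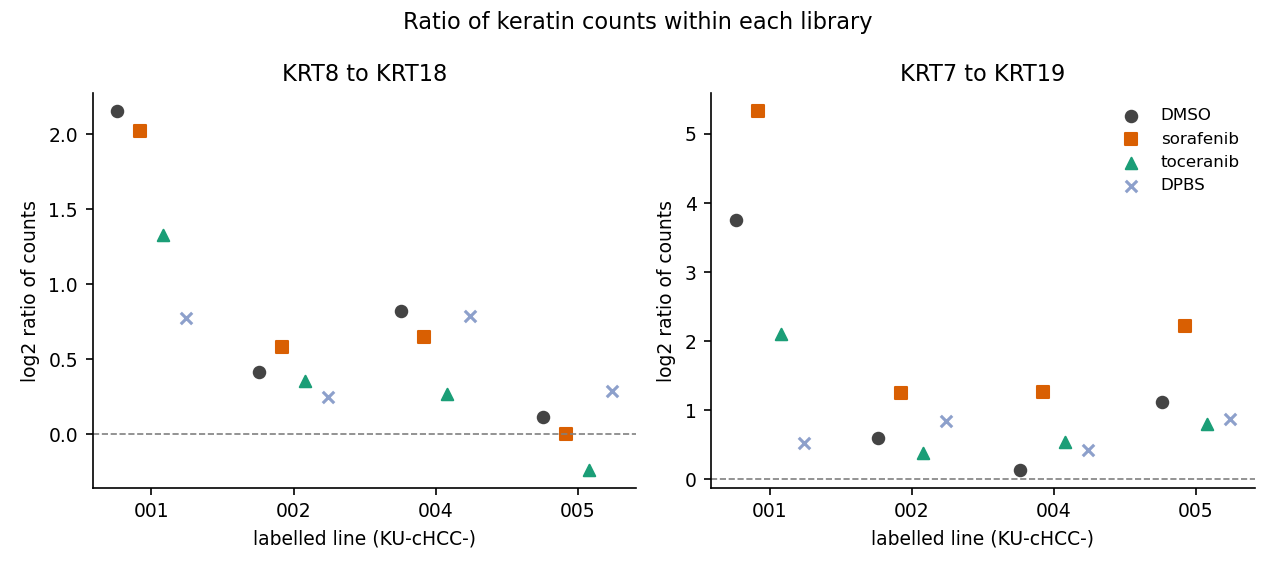
Log2 ratio of the counts of KRT8 to KRT18 (left) and of KRT7 to KRT19 (right) in each of the 16 libraries, by labelled line and treatment. Gene length was not taken out, so only differences between libraries can be read. With sorafenib the KRT7 to KRT19 ratio lies above DMSO in each line (13.5 to 40.1 in KU-cHCC-001), and with toceranib the KRT8 to KRT18 ratio lies below DMSO in each line.

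KRT80 differed in the other direction. It stood at 74.8, 424, 417 and 544 CPM with DMSO in lines 001, 002, 004 and 005 and at 86.5, 682, 630 and 709 CPM with sorafenib. It was higher in 4 of 4 lines, at 116% to 161% of DMSO. The log2 change was 0.46 ± 0.16 and missed the threshold (edgeR adjusted p = 0.0701). KRT23 had 7, 3 and 13 counts with DMSO and 3, 2 and 2 counts with sorafenib in lines 002, 004 and 005, too few for a test. KRT20 had 0 to 9 counts with DMSO and 1 count in each sorafenib library.

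These calls depended on the libraries in the fit, while the direction did not. KRT8 lost its call without KU-cHCC-001 (adjusted p = 0.0527), KU-cHCC-002 (0.0585), KU-cHCC-004 (0.132) or KU-cHCC-005 (0.142), and its log2 change stayed between -0.91 and -0.76 in the 11 alternatives run. Without KU-cHCC-001, KRT19 was called instead (adjusted p = 0.0228). The genes called over the whole table fell from 2935 to 915, 596 and 783 without lines 002, 004 and 005. A fit to the 8 sorafenib and DMSO libraries alone, in which 36.6% of genes were called, called KRT8, KRT18 and KRT19 as lower and KRT80 as higher (adjusted p = 0.00274, 0.00564, 0.00139 and 0.0203). DESeq2 on the 12 libraries, with 25.0% called, gave the same 4 calls.

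**Figure D4:**
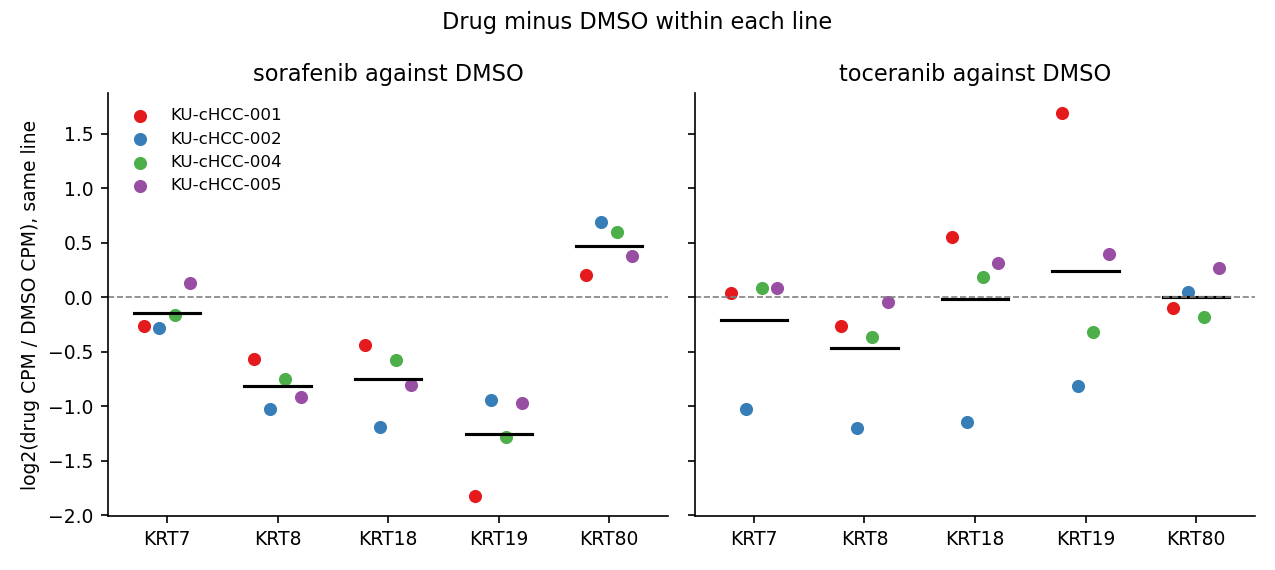
Log2 ratio of drug to DMSO CPM within each line for the 5 tested keratins, with sorafenib (left) and toceranib (right); points are lines and black bars their means. With sorafenib KRT8, KRT18 and KRT19 lie below 0 and KRT80 above 0 in 4 of 4 lines. With toceranib KU-cHCC-002 lies lowest for KRT7, KRT8, KRT18 and KRT19, and KRT19 of KU-cHCC-001 lies highest (1.70).

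Whether sorafenib acted differently in KU-cHCC-001 was tested by an interaction term. By edgeR, 0 of 14938 genes were called, 0%, with 1057 at an unadjusted p under 0.05 and 96 called by DESeq2. None of the 5 keratins had an unadjusted p under 0.05, and DESeq2 called 0 of them. The interval for KRT19, whose level was 28.2% of DMSO in KU-cHCC-001 and 41.1% to 52.0% elsewhere, ran from -2.03 to 0.47 on the log2 scale, which is wide enough to hold either order.

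Toceranib was compared with DMSO of the same line, so the drug and the change of vehicle cannot be told apart. No keratin passed the test: 7.46% of genes were called, and 0 of the 5 keratins, with 0 at an unadjusted p under 0.05 and 0 called by DESeq2. KRT8 stood at 83.4%, 43.6%, 77.6% and 97.3% of its DMSO level in lines 001, 002, 004 and 005, lower in each, with a log2 difference of -0.45 ± 0.23 (95% confidence interval -0.96 to 0.06, edgeR adjusted p = 0.227). KRT18 was at 147%, 45.3%, 114% and 124%, so KU-cHCC-002 went against the other lines.

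KU-cHCC-002 stood apart for most of the set with toceranib. Its KRT7 was at 3770 CPM against 7690 CPM with DMSO, KRT8 at 4490 against 10300 CPM, KRT18 at 3500 against 7720 CPM and KRT19 at 2910 against 5100 CPM, all 43.6% to 57.1% of DMSO. KRT80 there was at 438 against 424 CPM. In lines 004 and 005 the same 4 genes ranged from 77.6% to 132% of DMSO. No second library of KU-cHCC-002 with toceranib was analysed here to set this against.

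The ratio of KRT8 to KRT18 counts was 2.52, 1.28, 1.20 and 0.849 with toceranib in lines 001, 002, 004 and 005, below the DMSO ratio in 4 of 4 lines. The mean log2 change was -0.45 ± 0.32 (SD, n = 4), with an exact two-sided permutation p of 0.125, the smallest possible, and 0.25 after adjustment over the 8 ratio changes. KRT7 to KRT8 was higher than with DMSO in each line with both drugs, by 0.67 ± 0.31 with sorafenib and 0.26 ± 0.15 with toceranib on the log2 scale, at the same exact permutation p.

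KRT19 in KU-cHCC-001 was at 324% of DMSO with toceranib (69.4 against 21.4 CPM), while in lines 002, 004 and 005 it was at 57.1%, 80.1% and 132%. The difference between the effect in KU-cHCC-001 and its mean in the other lines was 1.88 ± 0.56 on the log2 scale (95% confidence interval 0.64 to 3.12). The unadjusted p was 0.00675 and the adjusted p 0.136 by edgeR, which called 0.743% of genes and 0 of the 5 keratins. DESeq2, which called 4.37% of genes, put KRT19 past the threshold (adjusted p = 0.00877), and so did edgeR without the filter on low counts (0.0369). Over all 8 alternatives the difference ran from 1.65 to 2.19 and the adjusted p from 0.00877 to 0.273. Beside this, the summed level of 7 leukocyte markers in KU-cHCC-001 was 337 CPM with toceranib against 15.7 CPM with DMSO, nearly all of it CD74 (321 CPM), and its part in the KRT19 value was not tested. ZEB1, a repressor of epithelial genes, stood at 3.29 CPM there with toceranib against 17.0 CPM with DMSO. The toceranib effect on it in KU-cHCC-001 differed from that in the other lines by -5.42 ± 0.87 (edgeR adjusted p = 0.0224). Part of this difference came from rises near the floor, from 0.181, 0.226 and 0.0553 CPM to 0.894, 0.927 and 2.37 CPM in lines 002, 004 and 005. The part of ZEB1 in the KRT19 value was not tested. The 111 genes called became 192 without KU-cHCC-004 and 25 without KU-cHCC-005.

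Stromal transcripts were also measured beside the keratins. With toceranib against DMSO, edgeR called 0 of 5 tested stromal markers, 4 had an unadjusted p under 0.05, and DESeq2 called 2. The summed level of 10 stromal markers (collagens, ACTA2, TAGLN and others) was 19.0 to 212 CPM with DMSO and 15.0 to 80.2 CPM with sorafenib. With toceranib it was 101, 23.8, 233 and 870 CPM in lines 001, 002, 004 and 005, and with DPBS 29.8, 929, 32.5 and 1050 CPM by label. Outside KU-cHCC-001 most of this sum was TAGLN, at 13.9 to 520 CPM in the DMSO, sorafenib and toceranib libraries. In KU-cHCC-004 it was 210 CPM with DMSO and 191 CPM with toceranib. COL3A1, a fibroblast collagen, was at 0 in all DMSO and sorafenib libraries and at 51.7 CPM with toceranib in KU-cHCC-005. The part of this signal in the keratin values was not tested. The 1115 genes called over the whole table became 66 without the toceranib library of KU-cHCC-005, 0 without those of lines 004 and 005, 3044 without KU-cHCC-001, and 7, 4 and 1 without lines 002, 004 and 005.

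The DPBS libraries all carried abundant keratin whatever their label. KRT7 stood at 3640, 4540, 3610 and 4530 CPM in those labelled 001, 002, 004 and 005, KRT8 at 5610, 7480, 5520 and 7380 CPM, and KRT19 at 2520, 2530, 2680 and 2480 CPM. The library labelled KU-cHCC-001 thus had keratin levels within or near those of the other lines. KRT18 (3270, 6300, 3200 and 6020 CPM) and KRT80 (324, 671, 347 and 648 CPM) split the 4 libraries into the same pairs as the count differences, 001 with 004 and 002 with 005. KRT23 had its highest counts here, 28 and 30, in the pair labelled 001 and 004, against 3 and 11 in the other pair.

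Toceranib minus DPBS over the libraries labelled 002, 004 and 005, without pairing by line, called 1 of 14639 genes (0.00683%) by edgeR, with 1805 at an unadjusted p under 0.05 and 502 called by DESeq2. The 1 gene was not a keratin, DESeq2 called 0 of the 6 keratins tested, and 1, KRT19, had an unadjusted edgeR p under 0.05. KRT19 was at 2910, 3990 and 3470 CPM with toceranib and at 2530, 2680 and 2480 CPM with DPBS in these libraries, a log2 difference of 0.43 ± 0.18 (edgeR adjusted p = 0.4). The DPBS library labelled 004 correlated best with DMSO of KU-cHCC-002, and those labelled 002 and 005 with DMSO of KU-cHCC-005. The toceranib and DPBS groups may therefore hold different lines. The DPBS libraries labelled 002 and 005 are the close pair above, so they may not count as separate replicates. With that pair summed into 1 library the KRT19 difference was 0.44 ± 0.26 (edgeR adjusted p = 0.8). KRT7 differed by 0.31 ± 0.24 and KRT8 by -0.12 ± 0.26.

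Across the 12 libraries each pair of tested keratins correlated on log2(CPM + 0.5), with Pearson's r from 0.86 to 0.971 between members. These points share lines and vehicles, and the low line sets most of the value. Over the 9 libraries without KU-cHCC-001 the r was 0.819 for KRT8 with KRT18, 0.764 for KRT8 with KRT19, 0.14 for KRT7 with KRT80 and -0.751 for KRT19 with KRT80. By the RefSeq annotation of the dog assembly UU_Cfam_GSD_1.0, KRT8 and KRT18 lie next to each other with 0 protein-coding genes between them. KRT80 and KRT7 are likewise neighbours, with the r of 0.14 above, as are KRT23 and KRT20.

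The genes nearest to each keratin in pattern were sought among 10901 genes over the same 12 libraries. RAB25, a small GTPase of epithelial membrane recycling, came first for KRT7 (r = 0.9952), and the mucin gene MUC20 first for KRT19 (r = 0.9917), followed by the cell polarity gene LLGL2 (0.9913). ANXA10, an annexin, came first for KRT18 (0.9807), UQCRQ, a subunit of respiratory complex III, first for KRT8 (0.976), and SNRPN, a small nuclear ribonucleoprotein gene, first for KRT80 (0.9848). None of the 3 nearest genes of any member was another member.

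Other keratins were scarce. Of 52 symbols, 8 reached 5 CPM in any of the 12 libraries and 9 could be tested. In KU-cHCC-001, 5 of the 9 were lower and 1 higher, against 19.5% lower and 24.3% higher over all tested genes. KRT88 (-6.00 ± 0.48), KRT81 (-5.42 ± 0.50) and KRT16 (-3.63 ± 0.38) led the lower ones, and the higher one, KRT25, averaged 2.94 CPM. The median log2 difference was -3.17 against 0.04 over all genes. Keratins present only in KU-cHCC-001 could not pass the filter, so these counts lean towards lower ones. KRT75 was among those not tested, at 1.99 to 4.56 CPM there and 0 to 0.0596 CPM elsewhere. So was KRT82, at 0.882 to 3.42 against 0 to 0.104 CPM. KRT10, an epidermal keratin named after its values were seen, lay between 20.4 and 46.2 CPM in all 12 libraries (log2 difference -0.15, edgeR adjusted p = 0.609).

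With sorafenib 1 of the 9 was called, against 19.6% of all tested genes. KRT16, a stress keratin of skin and other stratified epithelia, rose from 1.15, 14.1, 70.3 and 37.0 CPM with DMSO to 8.64, 62.0, 98.3 and 120 CPM in lines 001, 002, 004 and 005. It was higher in 4 of 4 lines, with a log2 change of 1.68 ± 0.32 (edgeR adjusted p = 0.00683). The type I keratin KRT16 thus rose in the libraries in which KRT18 and KRT19, also type I, were at 28.2% to 74.0% of DMSO. With toceranib 0 of the 9 were called by edgeR, against 7.46% of all tested genes. Of the 9, 1 had an unadjusted p under 0.05, and DESeq2 called 0.

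Genes that tie keratin filaments to desmosomes and other anchors were followed beside the keratins. In KU-cHCC-001, 11 of 20 tested were lower and 4 higher (median -0.62 against 0.04 over all genes). Over all tested genes 19.5% were called as lower and 24.3% as higher. PKP1, PKP3 and DSG3, desmosomal plakophilins and a cadherin, were lower by log2 differences of -6.84 ± 0.82, -4.68 ± 0.28 and -6.09 ± 0.46, and the cytolinkers DST and PLEC were higher by 1.00 ± 0.19 and 0.56 ± 0.20. With sorafenib 3 rose and 2 fell (median -0.08 against -0.02), while 9.59% of all tested genes rose and 10.1% fell. DSG3, DSC3 and DST rose by 1.28 ± 0.33, 0.71 ± 0.18 and 0.67 ± 0.21, and PKP3 and the plakoglobin gene JUP fell, with log2 changes of -1.22 ± 0.22 and -0.64 ± 0.20. With toceranib against DMSO 1 of the 20 was called, PKP3 at -0.88 ± 0.22 (edgeR adjusted p = 0.0395), against 7.46% of all tested genes. Drug and vehicle cannot be told apart here. PKP3 stood at 3.21, 192, 123 and 125 CPM with toceranib in lines 001, 002, 004 and 005. With DPBS, by label, it stood at 165, 125, 168 and 119 CPM.

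Other intermediate filament genes went opposite to the keratins in KU-cHCC-001. Of 12 tested, 10 were higher and 0 lower (median 1.84 against 0.04), against 24.3% higher and 19.5% lower over all tested genes. VIM, the vimentin of mesenchymal cells, stood at 6730, 6900 and 4860 CPM there with DMSO, sorafenib and toceranib, and at 1300 to 3200 CPM in the other lines (log2 difference 1.63 ± 0.25). DES, the muscle filament desmin, stood at 138, 51.0 and 40.7 CPM in KU-cHCC-001, compared with 0 to 1.19 CPM elsewhere. With sorafenib 3 of the 12 were called, against 19.6% of all tested genes. PRPH (2.89 ± 0.48) and SYNC (1.24 ± 0.32) were higher and the nuclear lamin LMNB1 lower (-0.75 ± 0.18). PRPH and SYNC were named after their values were seen and averaged 3.87 and 2.85 CPM.

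Transcription and splicing factors of epithelia were mostly lower in KU-cHCC-001 too, 10 of 15 tested against 2 higher (median -1.17 against 0.04). The shares over all tested genes were 19.5% lower and 24.3% higher. GRHL2, which maintains epithelial gene expression, stood at 0.22 to 0.314 CPM there and 31.8 to 73.6 CPM elsewhere, EHF at 6.88 to 15.0 against 161 to 272 CPM. With sorafenib 3 of the 15 were called, close to the 19.6% of all tested genes. Among them the splicing factor ESRP2 fell (-1.08 ± 0.15, edgeR adjusted p = 0.00165) and KLF4 rose (1.83 ± 0.32). Of the repressors of epithelial genes 3 of 6 could be tested. ZEB1 (5.27 ± 0.73) and SNAI2 (2.49 ± 0.32) were higher in KU-cHCC-001 and SNAI1 was lower (-3.52 ± 0.38). These are 3 of 3 called, against 43.8% of all tested genes. TWIST1 and ZEB2 did not pass the filter. They stood at 11 to 15 and 2.74 to 8.6 CPM there, and at 0 to 0.106 and 0 to 0.424 CPM in the other lines. SNAI1 rose with sorafenib (2.18 ± 0.34), from 0.891, 5.36, 21.0 and 7.30 CPM to 3.35, 52.9, 69.6 and 28.2 CPM. So did SNAI2 (1.15 ± 0.37, edgeR adjusted p = 0.0495), which averaged 4.69 CPM. They were 2 of 3 repressors tested, against 9.59% of all tested genes called as higher with sorafenib.

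Bile duct markers outside the keratins were lower in KU-cHCC-001 for 8 of 13 tested and higher for 3 (median -1.07 against 0.04). Hepatocyte markers were also lower there for 2 of 3 tested and higher for 1 (median -2.55). The shares over all tested genes were 19.5% lower and 24.3% higher. The chloride channel CFTR was at 0 to 0.441 CPM there and 34.3 to 240 CPM elsewhere. SPP1 (osteopontin) was higher there (3.94 ± 0.36), so not every bile duct marker followed KRT7 and KRT19. With sorafenib 3 of the 13 were called and all were lower, SPP1 (-3.01 ± 0.47) and the claudin CLDN4 (-1.06 ± 0.28) among them. Of all tested genes 19.6% were called with sorafenib, 10.1% as lower. With toceranib against DMSO 2 were called, both higher, SPP1 (2.84 ± 0.43) and EPCAM (0.95 ± 0.20), against 7.46% of all tested genes, 4.31% as higher. Drug and vehicle cannot be told apart here. In lines 001, 002, 004 and 005, SPP1 stood at 2440, 295, 205 and 92.9 CPM with toceranib. With DPBS, by label, it stood at 418, 133, 408 and 125 CPM. EPCAM stood at 516, 686, 422 and 479 CPM with toceranib and 491, 438, 480 and 395 CPM with DPBS. Toceranib minus DPBS called 0 of the 13 by edgeR, against 0.00683% of all tested genes.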

How the data were processed

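The deposited values were raw read counts per gene, 1 table per library, made by the authors. TopHat is named in the submitters' processing notes; the sources used here give no counter, strand setting or genome build, so reads shared with keratin pseudogenes or neighbours may have been split in an unknown way. Per the labels' protocols the kit was NEBNext Ultra II Directional. Each table held 39954 entries, and 89 repeated symbols were summed.

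Genes passing filterByExpr (14938) were fitted with edgeR 4.0.16 (limma 3.58.1, R 4.3.3) by robust quasi-likelihood, TMM scaling, treatment and cell line, on 12 libraries with 6 residual degrees of freedom (interaction 4). Calls used an adjusted p under 0.05. The filter worked by treatment group and needed counts in at least 4 libraries. Genes present only in the 3 fitted libraries of KU-cHCC-001 were therefore not tested. Pairing comes from the shared line: deviations of same-line libraries correlated with DMSO at 0.753 to 0.892 (sorafenib) and 0.56 to 0.797 (toceranib). The main edgeR fits, except the toceranib interaction, were tested on simulated data. DESeq2 1.42.0, other scaling, no filter, other library sets and left-out lines were alternatives.

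The members and gene lists were chosen with earlier results of these data known. From each companion list, up to 3 called genes in each direction were named by size of change, with a mean of at least 5 CPM. Intervals and floors cover counting error or the spread between libraries. 1 called gene of the companion lists is not reported here.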

Additional observations from a re-analysis of the deposited data

Results flagged for a closer look

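KRT80 in the sorafenib library of KU-cHCC-001 stood at 86.5 CPM, far below the other sorafenib libraries (630 to 709 CPM) relative to their spread, by Dixon's test at the 95% level. It was the 1 group flagged of 28 keratin and treatment groups tested, and chance flags about 1 in 20. KRT80 of KU-cHCC-001 was also the lowest of its group with DMSO (74.8 CPM) and toceranib (69.8 CPM).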

How the results depend on the processing

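The main limits are that each line gave 1 library per treatment, that 3 of the 4 DPBS libraries matched another line better than their own, and that a change of 1 line moves the calls; KRT20 and KRT23 had too few counts for the drug comparisons. The cause of each change below was not tested. Of the results for single keratins under the alternatives, 315 kept direction and side of the threshold, 11 newly passed it, 7 no longer passed it and 21 changed sign, none of these being called.

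For sorafenib minus DMSO, genes called were 464 with no replicate block, 5053 with the 8 libraries of drug and DMSO, and 596 to 3906 with a line left out. Keratins called were 4 with DESeq2, 2 with upper-quartile scaling, 0 with all 16 libraries, 0 with no replicate block, 4 with the 8 libraries and 0 to 1 with a line left out. For toceranib minus DMSO, genes called were 2335 with DESeq2, 557 with all 16 libraries, 66 without toceranib of KU-cHCC-005, 0 with no replicate block, 129 with the 8 libraries, 1 to 3044 with a line left out, and 0 without toceranib of lines 004 and 005, the last chosen after seeing the data. The higher and lower calls were 644 and 471 with TMM and 833 and 281 with upper-quartile scaling. No keratin was called in any of these toceranib fits, nor in the main one.

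For KU-cHCC-001 minus the other lines, genes called were 4207 with all 16 libraries and 3741 without the sorafenib libraries. Among the other lines they were 2489 with DESeq2, 0 with all 16 libraries, 157 without sorafenib and 3018 without toceranib libraries (1 keratin), and 205 to 2470 with a line left out. For the sorafenib interaction they were 96 with DESeq2, 74 with no filter and 1 to 2 with a line left out. For the toceranib interaction they were 653 with DESeq2 (1 keratin), 568 with no filter (1 keratin), 30 with all 16 libraries and 25 to 192 with a line left out; its higher and lower calls were 66 and 45 with TMM, 64 and 73 with upper-quartile scaling, and 308 and 345 with DESeq2. For toceranib minus DPBS they were 502 with DESeq2, and 0 with a replicate block by labelled line, with the DPBS libraries labelled 002 and 005 summed, and with any labelled line left out.

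Signs changed for toceranib minus DMSO, none of them called. KRT18 was 0.019 with DESeq2, 0.086 with upper-quartile scaling, 0.025 with 8 libraries and -0.16 to 0.34 with a line left out. KRT80 was -0.042 with no filter, -0.099 without toceranib of KU-cHCC-005, -0.023 without toceranib of lines 004 and 005, and -0.074 to 0.078 with a line left out. KRT19 was -0.11 with all 16 libraries, -0.28 with no replicate block and -0.19 to 0.68 with a line left out, and KRT7 -0.28 to 0.051. In the toceranib interaction with a line left out, KRT7 ran from -0.055 to 0.46 and KRT8 from -0.078 to 0.45. For toceranib minus DPBS with a labelled line left out, KRT8 ran from -0.26 to 0.15, KRT80 from -0.32 to 0.053, KRT18 from -0.10 to 0.67 and KRT23 from -1.48 to 1.30, and KRT7 was -0.0066 with all 8 libraries.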
